A study of Mus musculus with 9 samples.

Results

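Interferon-stimulated genes are the effectors and regulators that cells switch on when interferon binds its receptors, and 44 of them were examined in mouse brain out of 56748 genes in the deposited count table. The genes were chosen by symbol, as interferon-induced effectors together with their STAT and IRF regulators, and the rule that picks them out of the table uses no measured value. All 44 were present in the table. Of these, 43 passed the filter on low counts and were tested among 17575 genes. The remaining gene, Oas1b, had 8, 8 and 18 counts in 5xFAD/Cd5l tg/wt libraries, 8, 8 and 7 counts in 5xFAD libraries and 14, 10 and 7 counts in wild-type libraries and was not tested.

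RNA was taken from the brains of 7-month-old mice, with the cerebellum left out, and sequenced in bulk. Mice of 3 genotypes were compared, with 3 libraries each, and each library is titled as a separate mouse. 5xFAD/Cd5l tg/wt mice carry the 5xFAD transgenes and, in addition, a transgene for mouse Cd5l, a secreted scavenger-receptor protein of macrophages, under the human PDGF-B promoter. 5xFAD mice carry only the 5xFAD transgenes, which place mutant human genes such as APP under the Thy1 promoter of neurons and lead to amyloid deposits. Wild-type mice carry neither, and no genotype with the Cd5l transgene but without 5xFAD was among the libraries, so the Cd5l comparison was made within the amyloid model only. The p-values measure the spread between these libraries.

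The libraries held 14575416 to 17865150 counts. Cd5l itself had 2553, 2822 and 3551 counts in 5xFAD/Cd5l tg/wt libraries, against 0 in each 5xFAD library and 1 count over the 3 wild-type libraries, as the labels state. An earlier reading of these data set 3 libraries apart by genes that mark brain regions. They are wild-type library 3 and, of the 5xFAD/Cd5l tg/wt libraries, numbers 2 and 3. The regional lists behind that choice were not rebuilt here. In 5xFAD/Cd5l tg/wt library 2 the oligodendrocyte markers summed to 4609 CPM, against 6298 to 8138 CPM in the other 8 libraries. The 5 markers of cerebellar granule cells summed to 677 CPM in wild-type library 3, against 40.9 to 123 CPM in the other 8. Where a result below is also given without these 3 libraries, 1 library of 5xFAD/Cd5l tg/wt, 3 of 5xFAD and 2 of wild-type remain, and the lone library is assumed to vary like the other groups. The 8 neuronal markers summed to 7070 to 7883 CPM over all libraries, as fits brain tissue. CPM are counts brought to a common library size, log2 fold changes are given ± SE from the fit of all 9 libraries, and a gene is said to have risen or fallen where its adjusted p was under 0.05 in edgeR's quasi-likelihood test with Benjamini-Hochberg adjustment over all 17575 genes.

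Type I interferons bind a receptor that activates the kinases JAK1 and TYK2. These phosphorylate STAT proteins, STAT2 among them, which join IRF9 in the complex ISGF3, and ISGF3 binds the interferon-stimulated response element (ISRE) in the promoters of its target genes. Interferon gamma acts mainly through the gamma-activated site (GAS). In the brain, microglia are known to mount such a response around amyloid deposits, and endothelial cells, astrocytes and neurons can respond as well.

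RefSeq promoter windows of GRCm38.p6, each from 250 bases before to 50 bases after a gene's start, were at hand for 32 of the 44 members. The ISRE core, GAAA followed after any 2 bases by GAAA again, read on either strand, occurred in 16 of these 32 genes (50%), against 1079 of 27025 genes of the table with a window (3.99%). The GAS motif TTCNNNGAA occurred in 9 of 32 (28.1%), against 2582 of 27025 (9.55%), and 5 members held both motifs. A core lay upstream of the start in 13 members, within 160 bases of it in 12 of them, and only at or after the start in the other 3. The members were known to be interferon targets when the list was drawn up, so the share is a description, and a match is not a binding site.

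The excerpts below are those of genes described in the following paragraphs. They run 5′ to 3′ in the direction of the gene, and capitals mark the ISRE cores on either strand, overlapping cores forming a single run. Stat2 (chr10:128270251-128270310, plus strand) is the ISGF3 subunit that was higher in 5xFAD/Cd5l tg/wt than in 5xFAD brains, and Ifit3 (chr19:34583348-34583441, plus strand) and Ifit3b (chr19:34607744-34607837, plus strand) are neighbouring copies. Isg15 (chr4:156200850-156200921, minus strand), Trim30a (chr7:104465195-104465254, minus strand), Bst2 (chr8:71537562-71537627, minus strand) and Rsad2 (chr12:26456538-26456597, minus strand) stand for the effectors.
Stat2: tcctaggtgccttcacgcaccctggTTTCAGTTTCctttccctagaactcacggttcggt
Ifit3: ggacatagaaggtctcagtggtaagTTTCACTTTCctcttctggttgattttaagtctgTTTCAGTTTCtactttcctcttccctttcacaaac
Ifit3b: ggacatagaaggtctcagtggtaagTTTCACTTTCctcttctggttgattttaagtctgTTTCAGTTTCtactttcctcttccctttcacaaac
Isg15: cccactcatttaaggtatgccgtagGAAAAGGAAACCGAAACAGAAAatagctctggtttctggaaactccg
Trim30a: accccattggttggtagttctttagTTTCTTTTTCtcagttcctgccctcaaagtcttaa
Bst2: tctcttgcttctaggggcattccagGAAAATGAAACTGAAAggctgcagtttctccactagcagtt
Rsad2: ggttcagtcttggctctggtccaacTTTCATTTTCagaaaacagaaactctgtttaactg
Isg15 carried 3 overlapping cores and Bst2 carried 2. Trim30a, Rsad2 and Stat2 carried 1 each in these stretches, that of Stat2 at -222 to -213 from the start and thus the farthest upstream of those printed. The Ifit3 and Ifit3b stretches were identical over 94 of 94 bases. The windows of Xaf1, Lgals3bp and Irf7 held no core. Parp9, Parp14 and Ifi27, also described below, had no window and were not searched.

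**Figure D1:**
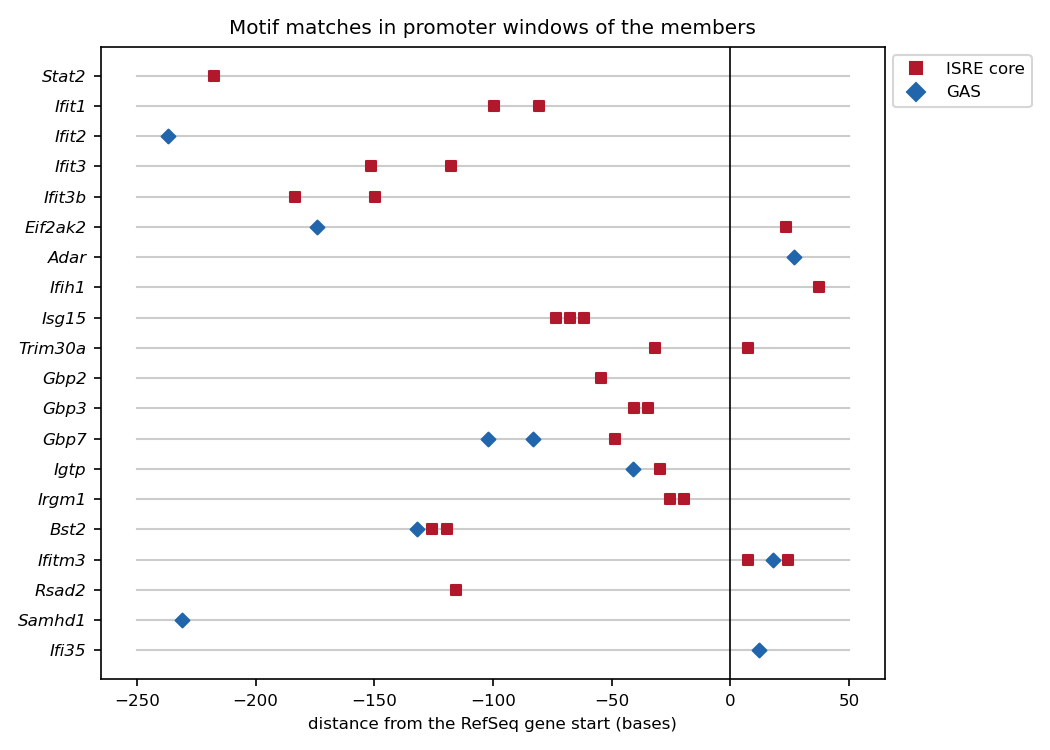
Positions of ISRE cores (red squares) and GAS motifs (blue diamonds) in the promoter windows of the members that hold either, against the distance from the RefSeq gene start in bases; for a gene with several starts, matches from all its windows share a row. The Bst2, Ifit3 and Isg15 cores lie upstream of the start, and those of Eif2ak2, Ifih1 and Ifitm3 lie after it.

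Across the 3 genotypes, the median interferon-stimulated gene stood highest in 5xFAD/Cd5l tg/wt brains and lowest in wild-type brains, and few of the genes passed the test singly. The median log2 fold change of the 43 tested members was 0.72 when 5xFAD/Cd5l tg/wt was set against wild-type, 0.41 when it was set against 5xFAD, and 0.29 when 5xFAD was set against wild-type. Without 5xFAD library 3 the median for 5xFAD against wild-type was 0.14, and without 5xFAD library 2 the median for 5xFAD/Cd5l tg/wt against 5xFAD was 0.26, or 0.24 without the 3 libraries that stood apart. The medians over all tested genes were 0.0008, 0.0065 and -0.01 in the same comparisons. The genotype means ranked 5xFAD/Cd5l tg/wt over 5xFAD over wild-type for 33 of the 43 members, as they did for 13.6% of all tested genes. These comparisons share libraries with each other, so that they are not independent of each other. Over the 3 comparisons and the pooled contrast of both amyloid genotypes with wild-type, 9 members rose in at least 1, and none fell in any.

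**Figure D2:**
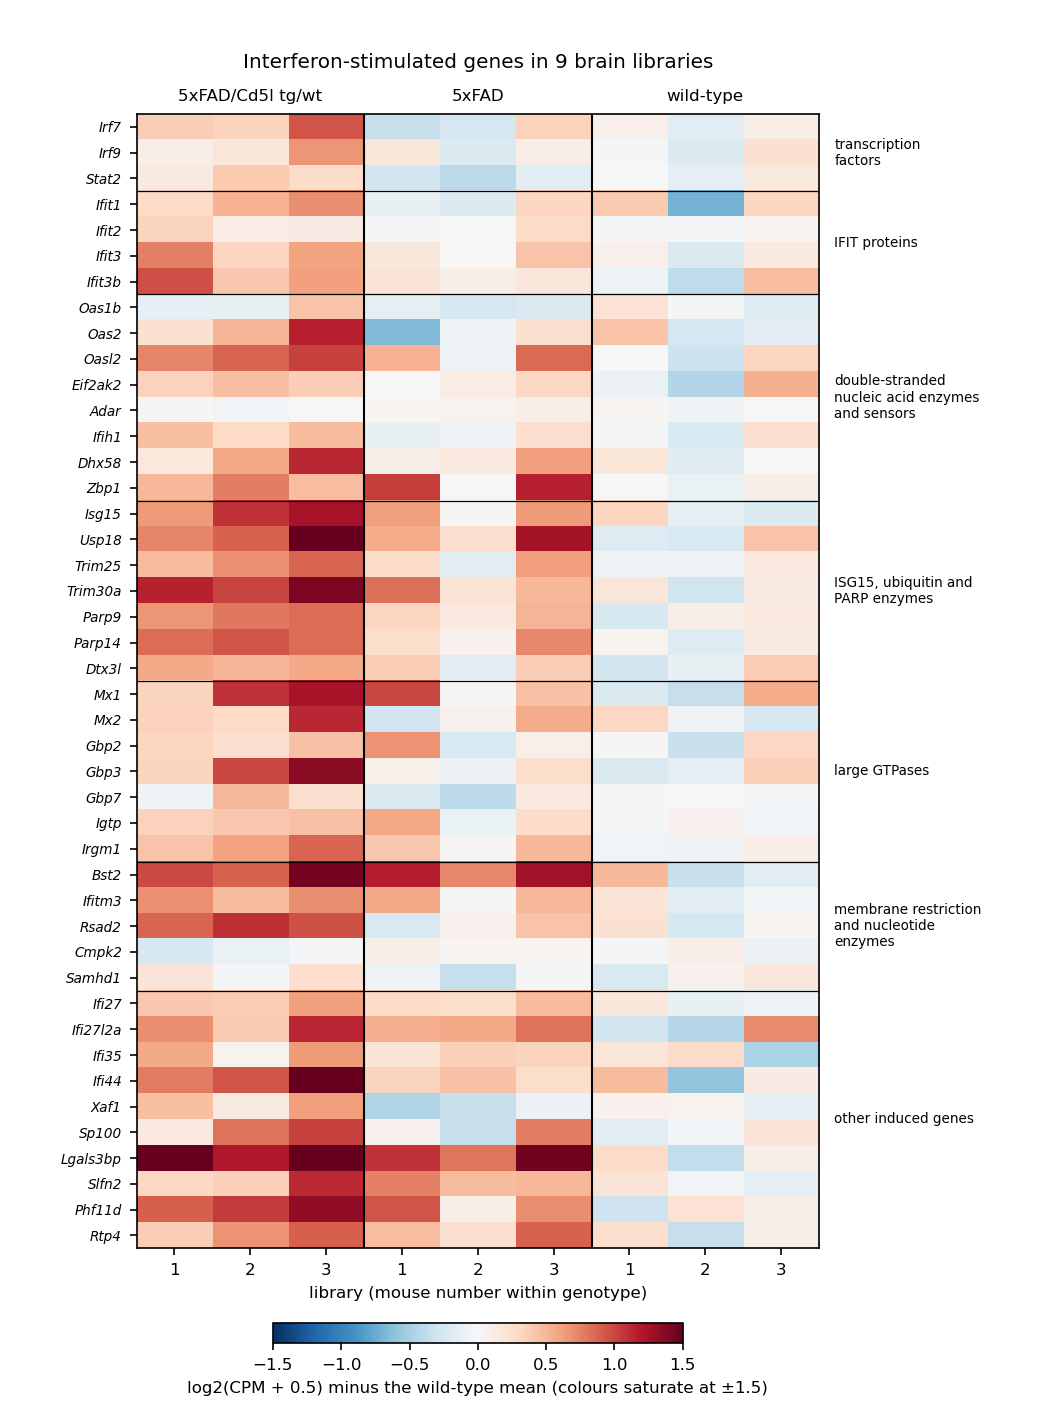
Level of each of the 44 members in each of the 9 libraries, as log2(CPM + 0.5) minus the mean of the wild-type libraries, with members grouped by role. Most members are redder in the 5xFAD/Cd5l tg/wt libraries, library 3 above all, while Adar, Cmpk2 and Ifit2 are close to white throughout.

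Against wild-type, 5xFAD/Cd5l tg/wt brains had 6 members that rose and 0 that fell, where 1.58% of all tested genes were called, 1.38% higher and 0.199% lower. These were Trim30a, Parp9, Parp14, Bst2, Ifi27 and Lgals3bp. A further 24 members were higher at an unadjusted p under 0.05, which makes 30 of 43, where 6.81% of all genes were. None was lower at that level, where 5.58% of all genes were. In 25 members each 5xFAD/Cd5l tg/wt library lay above each wild-type library, where 7.93% of all genes did so, and in 0 each lay below, where 6.53% of all genes did so. The count of 6 was 1 without 5xFAD/Cd5l tg/wt library 3, where 0.883% of all genes were called. It was 2 without 5xFAD/Cd5l tg/wt library 2 (1.25% of all genes), wild-type library 2 (1.4%) or 5xFAD library 1 (1.11%). It was 3 without wild-type library 3 (1.03%) or 5xFAD library 3 (1.25%), and 11 without 5xFAD/Cd5l tg/wt library 1 (3.82%). With DESeq2 it was 14 (2.66%). Without the 3 libraries that stood apart the log2 fold changes were 1.34 for Trim30a, 0.81 for Parp9 and 0.99 for Parp14. They were 0.92 for Bst2, 0.37 for Ifi27 and 1.61 for Lgals3bp, and of the 6 genes only Lgals3bp kept its call.

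Against 5xFAD, 5xFAD/Cd5l tg/wt brains had 3 members that rose and 0 that fell, where 6.23% of all tested genes were called, 5.34% higher and 0.888% lower. These were Stat2, Rsad2 and Xaf1. Of the 43 members, 16 were higher and 0 lower at an unadjusted p under 0.05, where 14.3% of all genes were higher and 8.01% lower. The libraries did not overlap for 12 higher members, where 16.6% of all genes were higher without overlap, and for 2 lower ones, Adar and Cmpk2, where 12.1% of all genes were lower without overlap. The count of 3 was 0 without 5xFAD library 1, where 1.9% of all genes were called, or 2, where 1.55% were. It was 1 without 5xFAD/Cd5l tg/wt library 3 (2.51% of all genes) and 4 with DESeq2 (8.18%). Without the 3 libraries that stood apart the log2 fold changes were 0.41 for Stat2, 0.91 for Rsad2 and 0.78 for Xaf1. None of these 3 genes kept its call there. The members' share of calls, 6.98%, was thus near that of all genes in this comparison.

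5xFAD brains had 2 members, Bst2 and Lgals3bp, that rose against wild-type and 0 that fell, where 3.5% of all tested genes were called, 1.06% higher and 2.44% lower. At an unadjusted p under 0.05, 9 members were higher and 1, Stat2, was lower, where 5.56% of all genes were higher and 10.7% lower. The libraries did not overlap for 6 higher members, where 10.4% of all genes were higher without overlap, and for 1 lower member, Stat2, where 13.9% of all genes were lower without overlap. DESeq2 called the same 2 genes. Without the 3 libraries that stood apart the log2 fold changes were 1.01 for Bst2 and 1.16 for Lgals3bp. Only Lgals3bp was called when wild-type library 2, wild-type library 3 or any 1 of the 5xFAD libraries was left out, so that the count was then 1. Of all genes, 1.14% to 2.71% were called in those fits, and 4.81% with DESeq2. With both amyloid genotypes pooled, 4 members rose against wild-type, Trim30a, Bst2, Ifi27 and Lgals3bp, and 0 fell, where 1.59% of all genes were called, 1.21% higher and 0.376% lower. That count was 1 without wild-type library 2 or 3, 5xFAD library 1 or 3, or 5xFAD/Cd5l tg/wt library 3, where 1.01% to 1.34% of all genes were called. With DESeq2 it was 6 (2.43% of all genes). Without the 3 libraries that stood apart the log2 fold changes were 1.00 for Trim30a, 0.97 for Bst2, 0.34 for Ifi27 and 1.39 for Lgals3bp. Of these genes only Lgals3bp kept its call there. In this pooled contrast, 22 members were higher and 0 lower at an unadjusted p under 0.05, where 5.05% of all genes were higher and 6.17% lower. All 6 amyloid libraries lay above all 3 wild-type libraries for 6 members and below them for 0, where 2.78% and 1.49% of all genes did so.

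**Figure D3:**
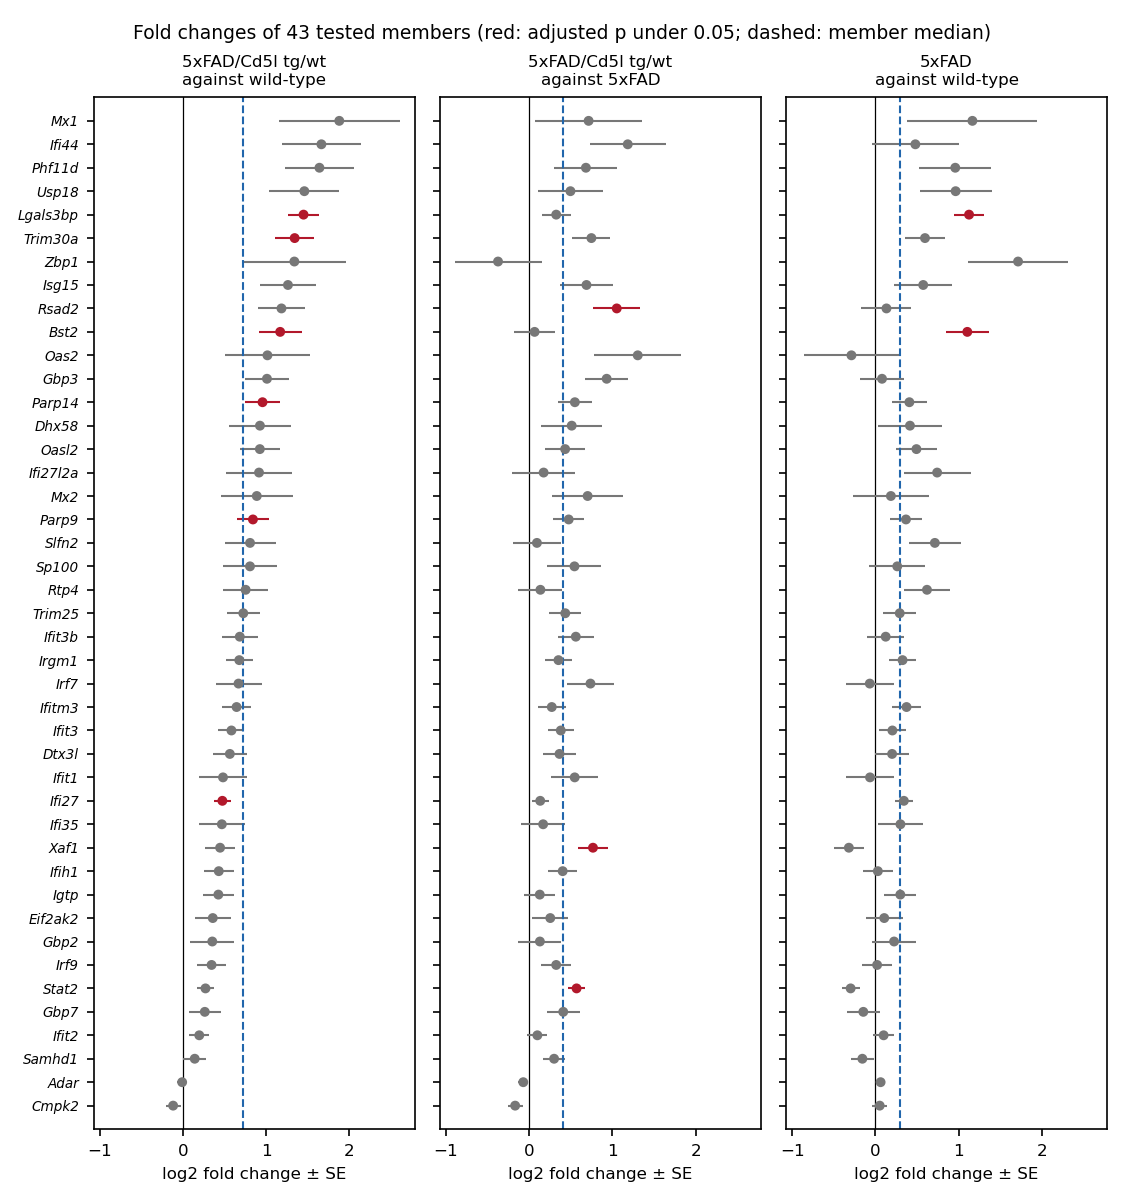
Log2 fold change ± SE of each of the 43 tested members in the 3 comparisons, with 3 libraries per genotype. Red marks an adjusted p under 0.05, the dashed line the median over the members and the solid line no difference; 41 of 43 points lie right of 0 where 5xFAD/Cd5l tg/wt is set against wild-type, 40 where it is set against 5xFAD and 36 where 5xFAD is set against wild-type.

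The counts in the role groups that follow stand beside these shares of all tested genes. In 5xFAD/Cd5l tg/wt against wild-type 1.38% were called higher, and 6.81% were higher at an unadjusted p under 0.05. Against 5xFAD these shares were 5.34% and 14.3%, and in 5xFAD against wild-type 1.06% and 5.56%. Of the 3 transcription factors, 1 rose over 5xFAD in 5xFAD/Cd5l tg/wt brains and 0 fell in any comparison by edgeR or DESeq2. Stat2, the STAT subunit of ISGF3 (chromosome 10, 128106428 to 128128718, GRCm39 here and below for genes), stood at 28.9, 34.7 and 31.9 CPM in 5xFAD/Cd5l tg/wt libraries, 21.4, 19.8 and 23.3 CPM in 5xFAD libraries and 26.2, 23.9 and 29.2 CPM in wild-type libraries. Each 5xFAD/Cd5l tg/wt library lay above each 5xFAD library, and each 5xFAD library lay below each wild-type library, whereas the 5xFAD/Cd5l tg/wt and wild-type libraries overlapped. Stat2 rose in 5xFAD/Cd5l tg/wt brains against 5xFAD by 0.57 ± 0.11 (adjusted p = 0.00918). Against wild-type the log2 fold change was 0.27 ± 0.11 for 5xFAD/Cd5l tg/wt (adjusted p = 0.315) and -0.30 ± 0.11 for 5xFAD (adjusted p = 0.18). The adjusted p of the rise was 0.0505 without 5xFAD library 1, 0.0692 without 5xFAD library 2 and 0.0832 without the 3 libraries that stood apart. Irf7, the factor that amplifies interferon production, stood at 3.46, 3.37 and 5.42 CPM in 5xFAD/Cd5l tg/wt libraries, 1.92, 2.08 and 3.41 CPM in 5xFAD libraries and 2.73, 2.25 and 2.77 CPM in wild-type libraries, with 5xFAD/Cd5l tg/wt library 3 the highest. Its log2 fold change in 5xFAD/Cd5l tg/wt against 5xFAD was 0.74 ± 0.28 (adjusted p = 0.141). Irf7 overlaps Phrf1 on the opposite strand, and whether counting used the strand is not given in the sources used here. Irf9, the DNA-binding subunit of ISGF3, had 12.4, 13.2 and 18.6 CPM in 5xFAD/Cd5l tg/wt libraries, 13.1, 9.99 and 12.4 CPM in 5xFAD libraries and 11.4, 9.97 and 13.7 CPM in wild-type libraries, with overlap between all genotypes, and it overlaps Rnf31 on the same strand.

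The IFIT proteins bind viral RNA and block its translation, and 0 of 4 rose or fell in any comparison, although some alternatives made calls. In 5xFAD/Cd5l tg/wt against wild-type, DESeq2 and the fit with a replicate block called Ifit3, and the fit without a filter called Ifit3 and Ifit3b. At an unadjusted p under 0.05, 2 of the 4 were higher in 5xFAD/Cd5l tg/wt against wild-type, 2 against 5xFAD, and 0 in 5xFAD against wild-type. Ifit3 (chromosome 19, 34560931 to 34566131), the IFIT gene with the highest level per length at 32.9 TPM, stood at 21.5, 15.8 and 19.4 CPM in 5xFAD/Cd5l tg/wt libraries, 14.2, 12.5 and 17 CPM in 5xFAD libraries and 13.3, 10.7 and 13.9 CPM in wild-type libraries. The 5xFAD/Cd5l tg/wt libraries lay above the wild-type ones, with a log2 fold change of 0.58 ± 0.16 (adjusted p = 0.107). Without the 3 libraries that stood apart, where 5xFAD/Cd5l tg/wt is library 1 alone, the highest for Ifit3, the log2 fold change was 0.83. Ifit3b stood at 12.8, 8.5 and 9.93 CPM in 5xFAD/Cd5l tg/wt libraries, 7.28, 6.73 and 7.16 CPM in 5xFAD libraries and 5.93, 4.74 and 8.85 CPM in wild-type libraries, higher in each 5xFAD/Cd5l tg/wt library than in each 5xFAD library but overlapping wild-type. Its log2 fold change against wild-type was 0.68 ± 0.22 (adjusted p = 0.197), with an adjusted p of 0.0457 without wild-type library 3. Without the 3 libraries that stood apart, where 5xFAD/Cd5l tg/wt is library 1 alone, its highest, Ifit3b had a log2 fold change of 1.25 ± 0.21 against wild-type (adjusted p = 0.00654) and 0.84 ± 0.19 against 5xFAD (adjusted p = 0.0328). The 2 genes are close copies with the identical promoter stretch printed above, and how reads that fit both were counted is not given, so the split between them is uncertain. Ifit1 ranged from 2.49 to 7.45 CPM and Ifit2 from 13.9 to 17.9 CPM over all libraries.

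Among the enzymes and sensors of double-stranded nucleic acid, 0 of 7 tested members rose or fell in any comparison, and at an unadjusted p under 0.05, 3 were higher in 5xFAD/Cd5l tg/wt against wild-type, 2 against 5xFAD and 1 in 5xFAD against wild-type. DESeq2, the fit with a replicate block and the fit without a filter each called 1, Oasl2, in 5xFAD/Cd5l tg/wt against wild-type. Oasl2, a mouse relative of the oligoadenylate synthetases, stood at 8.92, 9.85 and 11 CPM in 5xFAD/Cd5l tg/wt libraries, 7.61, 4.88 and 9.7 CPM in 5xFAD libraries and 5.17, 4.01 and 6.57 CPM in wild-type libraries. Each of its 5xFAD/Cd5l tg/wt libraries lay above each wild-type library, with a log2 fold change of 0.92 ± 0.24 (adjusted p = 0.0997). Dhx58, the helicase LGP2, had 1.13, 1.69 and 2.71 CPM in 5xFAD/Cd5l tg/wt libraries, 1.06, 1.12 and 1.74 CPM in 5xFAD libraries and 1.16, 0.79 and 0.968 CPM in wild-type libraries, highest in 5xFAD/Cd5l tg/wt library 3, and its log2 fold change against wild-type was 0.92 ± 0.38 (adjusted p = 0.338). Adar, which edits adenosine in double-stranded RNA, had the highest level per length of the members, 111 TPM, and stood at 242, 231 and 237 CPM in 5xFAD/Cd5l tg/wt libraries, 244, 247 and 256 CPM in 5xFAD libraries and 245, 231 and 240 CPM in wild-type libraries. Its log2 fold change in 5xFAD/Cd5l tg/wt against 5xFAD was -0.07 ± 0.06 (adjusted p = 0.505). Adar overlaps Chrnb2 on the opposite strand, with 10562 counts for Chrnb2 against 34669 for Adar over all libraries. Whether counting used the strand is not given, so the level of Adar is uncertain. Zbp1, a sensor of Z-form nucleic acid that can trigger cell death, was the lowest member per length at 0.565 TPM, with 8, 11 and 9 counts in 5xFAD/Cd5l tg/wt, 15, 4 and 17 in 5xFAD and 4, 3 and 4 in wild-type libraries. Ifih1, the RNA sensor MDA5, was higher without overlap in 5xFAD/Cd5l tg/wt libraries than in either other genotype, at 8.26, 7.42 and 8.41 CPM in 5xFAD/Cd5l tg/wt libraries, 5.43, 5.67 and 7.16 CPM in 5xFAD libraries and 5.81, 4.99 and 7.12 CPM in wild-type libraries, with adjusted p-values of 0.205 against 5xFAD and 0.343 against wild-type. Oas2, an oligoadenylate synthetase, had 12, 16 and 35 counts in 5xFAD/Cd5l tg/wt libraries, 3, 10 and 12 in 5xFAD libraries and 17, 7 and 7 in wild-type libraries, and Eif2ak2, the RNA-activated kinase PKR, had a log2 fold change of 0.36 ± 0.22 in 5xFAD/Cd5l tg/wt against wild-type (adjusted p = 0.559).

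Of the ISG15, ubiquitin and PARP enzymes, 3 of 7 rose in 5xFAD/Cd5l tg/wt against wild-type and 0 fell, and all 7 were higher at an unadjusted p under 0.05 and without overlap between the libraries. Of all tested genes, 1.38% were called higher in that comparison, 6.81% were higher at that unadjusted level and 7.93% were higher without overlap. DESeq2 called 4 of the 7, adding Trim25. Without the 3 libraries that stood apart none of the 3 that rose kept its call. Trim30a, an E3 ubiquitin ligase gene of the TRIM family (chromosome 7, 104058232 to 104114400), stood at 6.19, 5.6 and 7.5 CPM in 5xFAD/Cd5l tg/wt libraries, 4.83, 2.97 and 3.75 CPM in 5xFAD libraries and 2.91, 1.95 and 2.77 CPM in wild-type libraries. The genotypes did not overlap in any of the 3 comparisons, 5xFAD/Cd5l tg/wt being highest and wild-type lowest. Trim30a rose in 5xFAD/Cd5l tg/wt against wild-type by 1.34 ± 0.24 (adjusted p = 0.0106), and the log2 fold change was 0.75 ± 0.23 against 5xFAD (adjusted p = 0.0754). The rise against wild-type had an adjusted p of 0.0674 without 5xFAD/Cd5l tg/wt library 3 and 0.0724 without the 3 libraries that stood apart. Trim30a has near-identical relatives next to it, so reads may be split among them.

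Parp14, a mono-ADP-ribosyltransferase (chromosome 16, 35653244 to 35691914), stood at 6.99, 7.55 and 6.94 CPM in 5xFAD/Cd5l tg/wt libraries, 4.5, 3.87 and 6.36 CPM in 5xFAD libraries and 3.84, 3.16 and 4.08 CPM in wild-type libraries. The 5xFAD/Cd5l tg/wt libraries lay above those of both other genotypes, and Parp14 rose against wild-type by 0.96 ± 0.20 (adjusted p = 0.0376). The adjusted p was 0.0951, 0.115 and 0.074 without wild-type library 1, 2 or 3, 0.0695 without 5xFAD library 1, and 0.118 and 0.11 without 5xFAD/Cd5l tg/wt library 2 or 3. Without the 3 libraries that stood apart it was 0.154. Parp9 (chromosome 16, 35758840 to 35792975), whose product works in a complex with the ubiquitin ligase DTX3L, stood at 5.66, 6.2 and 6.43 CPM in 5xFAD/Cd5l tg/wt libraries, 4.37, 3.82 and 5.02 CPM in 5xFAD libraries and 2.79, 3.65 and 3.8 CPM in wild-type libraries. Its genotypes did not overlap either, and Parp9 rose in 5xFAD/Cd5l tg/wt against wild-type by 0.84 ± 0.19 (adjusted p = 0.049). That call did not hold without any 1 of the 9 libraries other than 5xFAD/Cd5l tg/wt library 1, with an adjusted p of 0.0663 to 0.168, nor without the 3 libraries that stood apart, with 0.235. Dtx3l, which overlaps Parp9 on the opposite strand, had 9.92, 9.51 and 9.93 CPM in 5xFAD/Cd5l tg/wt libraries, 8.6, 5.72 and 8.57 CPM in 5xFAD libraries and 5.29, 6.02 and 8.64 CPM in wild-type libraries, also higher without overlap in 5xFAD/Cd5l tg/wt, and an adjusted p of 0.271 against wild-type. Isg15, the ubiquitin-like modifier that gives the group its name, had the highest level per length in the group at 9.84 TPM and stood at 2, 2.9 and 3.27 CPM in 5xFAD/Cd5l tg/wt libraries, 1.99, 1.12 and 2.01 CPM in 5xFAD libraries and 1.51, 0.973 and 0.899 CPM in wild-type libraries. Its log2 fold change in 5xFAD/Cd5l tg/wt against wild-type was 1.26 ± 0.33 (adjusted p = 0.103), and the adjusted p was 0.0371 without 5xFAD/Cd5l tg/wt library 1. Usp18, the protease that removes ISG15 from proteins, had a log2 fold change of 1.46 ± 0.42 (adjusted p = 0.139), and Trim25, an E3 ligase that acts on the RNA sensor RIG-I, one of 0.72 ± 0.20 (adjusted p = 0.112). In 5xFAD/Cd5l tg/wt against wild-type the fit with a replicate block also called Usp18, and the fit without a filter also called Isg15, Usp18 and Trim25. Without a filter Trim30a was also called against 5xFAD.

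The large GTPases, which attack viruses and the vacuoles of intracellular parasites, had 0 of 7 members past the threshold in any comparison, with 4 higher at an unadjusted p under 0.05 in 5xFAD/Cd5l tg/wt against wild-type, 2 against 5xFAD and 0 in 5xFAD against wild-type. DESeq2 called 2 of them, Gbp3 and Irgm1, in 5xFAD/Cd5l tg/wt against wild-type and 1, Gbp3, against 5xFAD. The fit without a filter made the same calls, and the fit with a replicate block called Gbp3 in both comparisons. Irgm1, an immunity-related GTPase, stood at 13.6, 15.4 and 18.7 CPM in 5xFAD/Cd5l tg/wt libraries, 13.4, 10.1 and 14.1 CPM in 5xFAD libraries and 9.65, 9.55 and 10.7 CPM in wild-type libraries, with 5xFAD/Cd5l tg/wt above wild-type in every library. Its log2 fold change was 0.68 ± 0.16 (adjusted p = 0.0612), and the adjusted p was 0.0477 without 5xFAD library 2 and 0.0192 without 5xFAD/Cd5l tg/wt library 1. Gbp3, a guanylate-binding protein gene, stood at 6.26, 10.2 and 13.2 CPM in 5xFAD/Cd5l tg/wt libraries, 5.16, 4.55 and 5.96 CPM in 5xFAD libraries and 4.13, 4.38 and 6.36 CPM in wild-type libraries. The values of the 5xFAD/Cd5l tg/wt libraries spread widely, and library 1 overlapped wild-type. The log2 fold change of Gbp3 was 1.01 ± 0.26 against wild-type (adjusted p = 0.0913, and 0.00571 without 5xFAD/Cd5l tg/wt library 1) and 0.93 ± 0.26 against 5xFAD (adjusted p = 0.0532). Igtp, the group's highest gene per length at 11.1 TPM, stood at 6.53, 6.81 and 7 CPM in 5xFAD/Cd5l tg/wt libraries, 7.81, 4.66 and 6.22 CPM in 5xFAD libraries and 4.94, 5.29 and 4.91 CPM in wild-type libraries, above wild-type in each 5xFAD/Cd5l tg/wt library, with a log2 fold change of 0.42 ± 0.19 (adjusted p = 0.386). It overlaps Irgm2 on the same strand, and the Gbp genes have close paralogs, so that the split of reads is uncertain for both. Mx1 and Mx2 were scarce, with 1 to 21 and 9 to 43 counts per library. In 5xFAD/Cd5l tg/wt against wild-type Mx1 had a log2 fold change of 1.88 ± 0.73 (adjusted p = 0.307), Mx2 one of 0.89 ± 0.43 (adjusted p = 0.439), Gbp2 one of 0.35 ± 0.26 (adjusted p = 0.645) and Gbp7 one of 0.26 ± 0.20 (adjusted p = 0.649).

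Among the membrane restriction factors and nucleotide enzymes, 1 of 5 rose in each comparison and 0 fell. In 5xFAD/Cd5l tg/wt against wild-type DESeq2 called 3 of the 5, adding Ifitm3 and Rsad2, as did the fit without a filter. Bst2, or tetherin, which holds budding virions at the cell surface (chromosome 8, 71986899 to 71990100), stood at 7.92, 7.35 and 10.9 CPM in 5xFAD/Cd5l tg/wt libraries, 9.07, 6.51 and 9.64 CPM in 5xFAD libraries and 5.46, 2.86 and 3.32 CPM in wild-type libraries. Both amyloid genotypes lay above wild-type without overlap and overlapped each other. Bst2 rose against wild-type by 1.17 ± 0.26 in 5xFAD/Cd5l tg/wt (adjusted p = 0.0418) and by 1.10 ± 0.26 in 5xFAD (adjusted p = 0.0351), and 5xFAD/Cd5l tg/wt against 5xFAD had a log2 fold change of 0.06 ± 0.24 (adjusted p = 0.902). In 5xFAD the adjusted p was 0.0502 to 0.146 when wild-type library 2 or 3 or any of the 5xFAD libraries was dropped. In 5xFAD/Cd5l tg/wt it was 0.0512 to 0.185 when any library was dropped other than wild-type library 1 or 5xFAD/Cd5l tg/wt library 1, and 0.22 without the 3 libraries that stood apart.

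Rsad2, or viperin, which makes a chain-terminating nucleotide (chromosome 12, 26492745 to 26506451), stood at 3, 3.57 and 3.22 CPM in 5xFAD/Cd5l tg/wt libraries, 1.12, 1.51 and 2.08 CPM in 5xFAD libraries and 1.74, 1.09 and 1.45 CPM in wild-type libraries. The 5xFAD/Cd5l tg/wt libraries lay above those of both other genotypes, which overlapped. Compared with 5xFAD, Rsad2 rose in 5xFAD/Cd5l tg/wt brains by 1.05 ± 0.28 (adjusted p = 0.0458), and the log2 fold change against wild-type was 1.18 ± 0.28 (adjusted p = 0.0673). The adjusted p against 5xFAD was 0.0511 or 0.055 without wild-type library 1 or 2, 0.195 or 0.175 without 5xFAD library 1 or 2, and 0.142 or 0.112 when 5xFAD/Cd5l tg/wt library 2 or 3 was dropped. It was 0.252 without the 3 libraries that stood apart. Against wild-type the adjusted p was 0.0492 without 5xFAD/Cd5l tg/wt library 1. Cmpk2, the mitochondrial nucleotide kinase gene that lies next to Rsad2 on the opposite strand, stood at 22.9, 25.2 and 26.8 CPM in 5xFAD/Cd5l tg/wt libraries, 28.7, 27.9 and 27.7 CPM in 5xFAD libraries and 26.9, 29.1 and 25.4 CPM in wild-type libraries. Cmpk2 was lower in each 5xFAD/Cd5l tg/wt library than in each 5xFAD library, with a log2 fold change of -0.17 ± 0.09 (adjusted p = 0.295). Ifitm3, which blocks the entry of viruses from endosomes, was the group's highest gene per length at 60.8 TPM and stood at 14.1, 12 and 14.2 CPM in 5xFAD/Cd5l tg/wt libraries, 12.8, 8.36 and 12.2 CPM in 5xFAD libraries and 9.82, 7.6 and 8.3 CPM in wild-type libraries. It lay above wild-type in each 5xFAD/Cd5l tg/wt library, with a log2 fold change of 0.64 ± 0.17 (adjusted p = 0.111). Samhd1, which breaks down deoxynucleotides, overlapped between all genotypes at 13.6 to 20.9 CPM.

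The other induced genes had 2 of 10 members higher past the threshold in 5xFAD/Cd5l tg/wt against wild-type, 1 that rose against 5xFAD and 1 that rose in 5xFAD against wild-type, with 0 that fell. DESeq2 called 3 of the 10 in 5xFAD/Cd5l tg/wt against wild-type, adding Phf11d. The fit without a filter added Phf11d and Ifi44 there, Lgals3bp against 5xFAD and Ifi27 in 5xFAD against wild-type. Lgals3bp, a secreted glycoprotein that binds galectin-3 (chromosome 11, 118283577 to 118292918), stood at 61.6, 47.1 and 59.1 CPM in 5xFAD/Cd5l tg/wt libraries, 43.4, 35.4 and 55.5 CPM in 5xFAD libraries and 24.6, 15.5 and 21.4 CPM in wild-type libraries. Each amyloid library lay above each wild-type library, and the 2 amyloid genotypes overlapped. Lgals3bp rose against wild-type by 1.45 ± 0.18 in 5xFAD/Cd5l tg/wt (adjusted p = 0.000855) and by 1.12 ± 0.18 in 5xFAD (adjusted p = 0.0053), and its log2 fold change in 5xFAD/Cd5l tg/wt against 5xFAD was 0.32 ± 0.18 (adjusted p = 0.299). It was the only member to keep its calls under each alternative run, including each left-out library, with an adjusted p of at most 0.00811 in 5xFAD/Cd5l tg/wt and 0.0263 in 5xFAD. Its promoter window held no ISRE core.

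Xaf1, whose product binds the apoptosis inhibitor XIAP (chromosome 11, 72192455 to 72204559), stood at 8.46, 6.74 and 9.65 CPM in 5xFAD/Cd5l tg/wt libraries, 4.3, 4.66 and 5.69 CPM in 5xFAD libraries and 6.39, 6.32 and 5.53 CPM in wild-type libraries. It was higher in each 5xFAD/Cd5l tg/wt library than in any library of the other genotypes. Compared with 5xFAD, Xaf1 rose in 5xFAD/Cd5l tg/wt brains by 0.77 ± 0.18 (adjusted p = 0.0283), with an adjusted p of 0.135 or 0.134 without 5xFAD library 1 or 2, 0.111 without 5xFAD/Cd5l tg/wt library 3 and 0.0751 without the 3 libraries that stood apart. The log2 fold change of Xaf1 in 5xFAD against wild-type was -0.32 ± 0.18 (adjusted p = 0.433), and those libraries overlapped. Ifi27, a small membrane protein gene (chromosome 12, 103400470 to 103406498), came next after Adar per length at 95.5 TPM and stood at 40.9, 40.1 and 47.3 CPM in 5xFAD/Cd5l tg/wt libraries, 37.5, 36.9 and 42.8 CPM in 5xFAD libraries and 34.7, 28.3 and 29.4 CPM in wild-type libraries. Its amyloid libraries lay above wild-type, and Ifi27 rose in 5xFAD/Cd5l tg/wt by 0.47 ± 0.10 (adjusted p = 0.0424), while 5xFAD had 0.34 ± 0.10 (adjusted p = 0.111). The rise had an adjusted p of 0.0596 to 0.189 when any library was dropped other than wild-type library 1 or 5xFAD/Cd5l tg/wt library 1, and 0.216 without the 3 libraries that stood apart. Ifi27 has close paralogs, Ifi27l2a among them. Phf11d had a log2 fold change of 1.64 ± 0.41 against wild-type (adjusted p = 0.0832) on 6 to 38 counts per library. Ifi44 had one of 1.66 ± 0.48 (adjusted p = 0.139) on 3 to 49 counts. The 5 others were Ifi27l2a with a log2 fold change of 0.91 ± 0.40 (adjusted p = 0.373), Ifi35 with 0.47 ± 0.27 (adjusted p = 0.54), Sp100, a component of nuclear bodies, with 0.80 ± 0.33 (adjusted p = 0.338), Slfn2 with 0.81 ± 0.31 (adjusted p = 0.297) and Rtp4, a chaperone of membrane receptors that overlaps Masp1 on the opposite strand, with 0.75 ± 0.27 (adjusted p = 0.269).

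**Figure D4:**
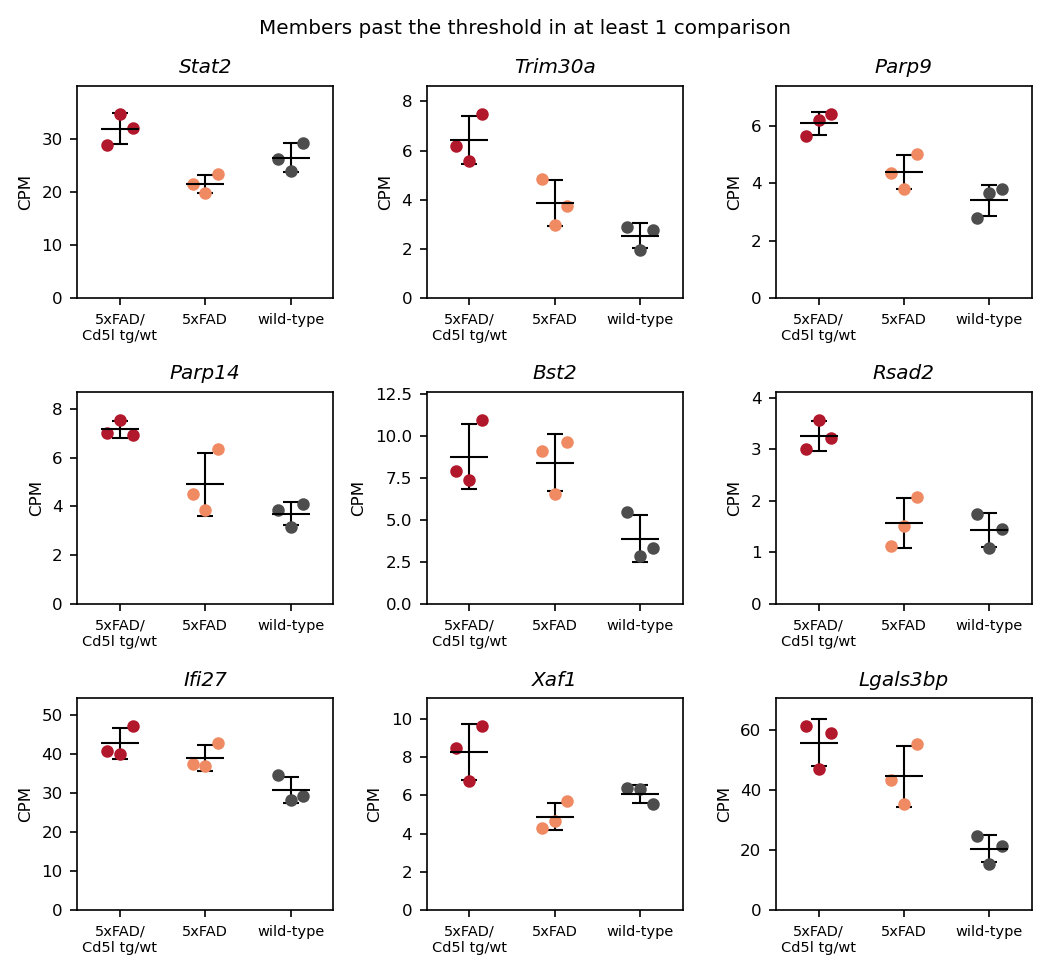
CPM of the 9 members that passed an adjusted p of 0.05 in at least 1 comparison, 1 point per library, with the mean and SD over 3 libraries as lines and all axes from 0. Bst2, Ifi27 and Lgals3bp are higher in both amyloid genotypes than in wild-type, and Stat2, Rsad2 and Xaf1 are higher in 5xFAD/Cd5l tg/wt than in 5xFAD.

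The members tended to be high or low in the same libraries. The median member stood 0.419, 0.499 and 0.834 above the wild-type mean on the log2(CPM + 0.5) scale in 5xFAD/Cd5l tg/wt libraries 1, 2 and 3, 0.234, 0.0132 and 0.426 above it in 5xFAD libraries 1, 2 and 3, and at 0.0179, -0.148 and 0.0967 in wild-type libraries 1, 2 and 3. Within its genotype, 5xFAD/Cd5l tg/wt library 3 was the highest for 32 of 43 members (74.4%), where it was for 30.5% of all tested genes. 5xFAD library 3 was the highest of its genotype for 30 of 43 (69.8%, against 38.9% of all genes), and 5xFAD library 2 the lowest for 29 (67.4%, against 33.3%). Wild-type library 2 was the lowest of its genotype for 28 (65.1%, against 30.7%), and wild-type library 3 the highest for 22 (51.2%, against 38.1%). The median member therefore overlapped between 5xFAD library 3 and 5xFAD/Cd5l tg/wt library 1.

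Cell-type markers moved with the genotypes too. Beside their calls, 1.38% of all tested genes were called higher in 5xFAD/Cd5l tg/wt against wild-type and 5.34% against 5xFAD. In 5xFAD against wild-type 1.06% were called higher and 2.44% lower. The 12 microglial markers summed to 952 to 1090 CPM in 5xFAD/Cd5l tg/wt libraries, 817 to 1031 CPM in 5xFAD libraries and 415 to 470 CPM in wild-type libraries, and 11 of 12 rose in 5xFAD/Cd5l tg/wt against wild-type, 12 of 12 rose in 5xFAD against wild-type, and 0 of 12 passed between 5xFAD/Cd5l tg/wt and 5xFAD, where 3 were higher at an unadjusted p under 0.05 and DESeq2 called 0. The 10 endothelial markers summed to 267 to 316 CPM in 5xFAD/Cd5l tg/wt libraries, 162 to 194 CPM in 5xFAD libraries and 253 to 286 CPM in wild-type libraries, with 7 of 10 higher in 5xFAD/Cd5l tg/wt than in 5xFAD, 4 of 10 lower in 5xFAD than in wild-type, and 0 of 10 past the threshold between 5xFAD/Cd5l tg/wt and wild-type, where 1 had an unadjusted p under 0.05 and DESeq2 called 0. The 7 markers of pericytes and smooth muscle summed to 139 to 152 CPM in 5xFAD/Cd5l tg/wt libraries, 93.2 to 102 CPM in 5xFAD libraries and 133 to 140 CPM in wild-type libraries. Astrocyte markers summed to 5378 to 5631 CPM in 5xFAD/Cd5l tg/wt libraries, 5302 to 5432 CPM in 5xFAD libraries and 4255 to 4702 CPM in wild-type libraries, and 1 of 8 rose in each amyloid genotype against wild-type. Without the 3 libraries that stood apart, 5xFAD/Cd5l tg/wt is library 1 alone. Its sums were 1051 CPM for microglial, 267 CPM for endothelial and 5489 CPM for astrocyte markers. The part of these cell types in the members' differences was not tested, and in bulk tissue fewer cells of a type and less RNA per cell cannot be told apart.

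The 5 red blood cell genes summed to 2.13, 1.75 and 13.7 CPM in 5xFAD/Cd5l tg/wt libraries 1, 2 and 3, to 3.18, 1.57 and 22 CPM in 5xFAD libraries 1, 2 and 3, and to 1.16, 0.851 and 2.56 CPM in wild-type libraries 1, 2 and 3, so that library 3 of each genotype held the most of them. The same libraries were the highest of their genotype for most members, and the part of blood was not tested. Markers of white blood cells were near the limit of detection. The 8 markers of monocytes and neutrophils summed to 0.202 to 0.866 CPM in 5xFAD/Cd5l tg/wt libraries, 0.265 to 0.535 CPM in 5xFAD libraries and 0.243 to 0.83 CPM in wild-type libraries, with 0 of 8 past the filter and Retnlg at 0 in every library. Of the 12 lymphocyte markers 2 passed the filter, and the T-cell marker Cd3e had at most 2 counts. The list summed to 6.99 to 22.2 CPM in 5xFAD/Cd5l tg/wt libraries, 10.8 to 11.4 CPM in 5xFAD libraries and 6.78 to 13.8 CPM in wild-type libraries, most of it from Cd4, which macrophages and microglia can also express. The 7 markers of border macrophages summed to 5.33 to 12 CPM in 5xFAD/Cd5l tg/wt libraries, 9.64 to 10.1 CPM in 5xFAD libraries and 6.63 to 9.61 CPM in wild-type libraries, with 0 called in any comparison by edgeR or DESeq2 and 1 of 6 tested higher at an unadjusted p under 0.05 against wild-type in 5xFAD/Cd5l tg/wt and in 5xFAD.

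**Figure D5:**
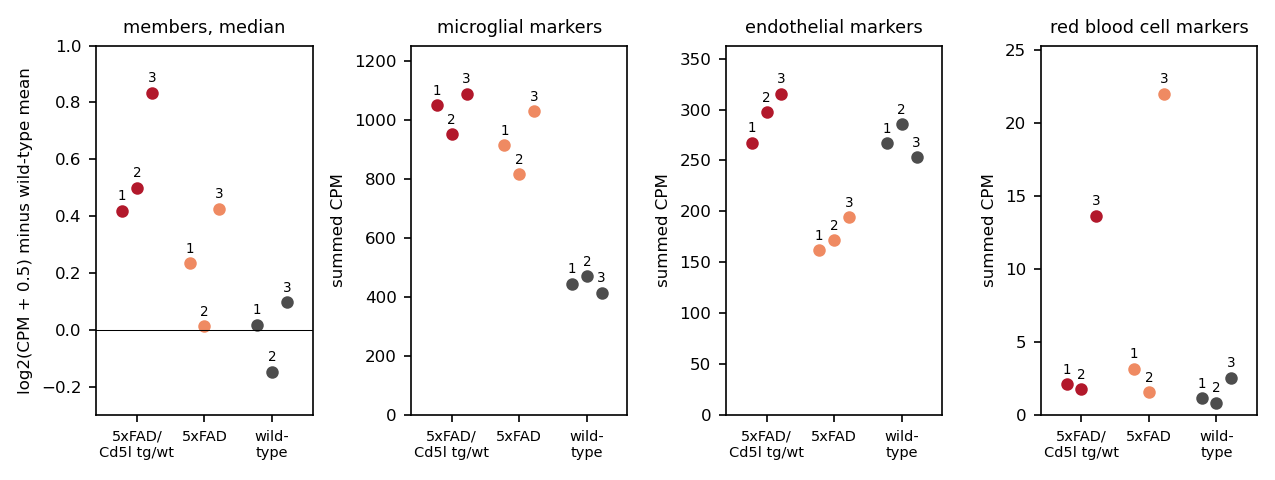
Median level of the members in each library on the log2 scale relative to the wild-type mean, beside the summed CPM of microglial, endothelial and red blood cell markers, with numbers naming the library. The members' medians are highest in 5xFAD/Cd5l tg/wt library 3 and lowest in wild-type library 2; the microglial sums separate both amyloid genotypes from wild-type, and the endothelial sums are lowest in 5xFAD.

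The genes upstream of the members were looked at from lists of the pathway. The shares of all tested genes called higher were 1.38% in 5xFAD/Cd5l tg/wt against wild-type, 5.34% against 5xFAD and 1.06% in 5xFAD against wild-type. Of 13 interferon genes, 10, among them Ifnb1 and the alpha interferons listed, had 0 counts in all 9 libraries, and the other 3 had 4 counts in total, 2 for Ifne and 1 each for Ifnz and Ifng. Over the 9 libraries together a count of 0 allows up to 0.0209 CPM, counting 3 counts as the limit and counting error only. Of the interferon receptor genes, 5 of 6 were tested and 1, Ifngr2, the second chain of the interferon gamma receptor, rose in 5xFAD against wild-type by 0.36 ± 0.08 (adjusted p = 0.026). It stood at 44.3, 41.8 and 41.2 CPM in 5xFAD/Cd5l tg/wt libraries, 43.8, 40.6 and 47 CPM in 5xFAD libraries and 34.5, 34.3 and 33.5 CPM in wild-type libraries, and both amyloid genotypes lay above wild-type without overlap. The call did not hold without any 1 of the wild-type libraries or 5xFAD library 1 or 3, with an adjusted p of 0.0582 to 0.11. Ifnar1 and Ifnar2, the chains of the type I receptor, passed in no comparison.

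Of the 9 receptor kinases and STAT and IRF factors that are not members, Irf8 and Tyk2 passed. Irf8, a myeloid transcription factor that microglia need, stood at 18, 18.5 and 20.1 CPM in 5xFAD/Cd5l tg/wt libraries, 15.2, 12.5 and 15.7 CPM in 5xFAD libraries and 5.35, 5.23 and 5.95 CPM in wild-type libraries. Each amyloid library lay above each wild-type library, and Irf8 rose by 1.78 ± 0.13 in 5xFAD/Cd5l tg/wt (adjusted p = 9.35e-06) and by 1.39 ± 0.13 in 5xFAD (adjusted p = 9.87e-05). Tyk2, a kinase of the type I interferon receptor, stood at 16.4, 16.4 and 19.2 CPM in 5xFAD/Cd5l tg/wt libraries, 13.2, 13.2 and 12.8 CPM in 5xFAD libraries and 14.5, 15.9 and 14.6 CPM in wild-type libraries, and rose over its 5xFAD level in 5xFAD/Cd5l tg/wt brains by 0.41 ± 0.11 (adjusted p = 0.0452), with no overlap between those libraries. That call did not hold without any 1 library other than wild-type library 3 or 5xFAD/Cd5l tg/wt library 1, with an adjusted p of 0.0633 to 0.16, and the adjusted p was 0.265 without the 3 libraries that stood apart. In a list of inhibitors of the response, which also took in Ube2l6, Trex1 and the Rnaseh2 genes, 10 of 11 genes were tested. Of these, 1, Ptpn6, the phosphatase SHP-1, rose in each comparison. It stood at 12.2, 10.1 and 13.4 CPM in 5xFAD/Cd5l tg/wt libraries, 8.01, 7.18 and 8.23 CPM in 5xFAD libraries and 3.02, 3.28 and 2.97 CPM in wild-type libraries, with no overlap between any of the genotypes. The log2 fold change was 1.94 ± 0.16 in 5xFAD/Cd5l tg/wt against wild-type (adjusted p = 2.32e-05) and 0.61 ± 0.15 against 5xFAD (adjusted p = 0.033). Against 5xFAD the adjusted p was 0.0521 to 0.163 without wild-type library 2, any 1 of the 5xFAD libraries or 5xFAD/Cd5l tg/wt library 3, and 0.087 without the 3 libraries that stood apart. Of 12 nucleic acid sensors and adaptors, 1, Tlr7, the endosomal receptor for single-stranded RNA, rose in both amyloid genotypes against wild-type, by 1.30 ± 0.21 in 5xFAD/Cd5l tg/wt (adjusted p = 0.00534) and by 1.10 ± 0.21 in 5xFAD (adjusted p = 0.0131). In 5xFAD the adjusted p was 0.0517 to 0.0751 without wild-type library 2 or 5xFAD library 1. It stood at 10.5, 7.96 and 6.43 CPM in 5xFAD/Cd5l tg/wt libraries, 8.54, 6.51 and 6.62 CPM in 5xFAD libraries and 3.55, 3.22 and 3.32 CPM in wild-type libraries, and none of these lists had a gene that fell at this threshold in any comparison.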

How the data were processed

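The authors deposited unnormalized read counts per gene for 9 libraries, with a gene length for each gene. The reads were mapped to GRCm39, per the submitters' processing notes. Not given in the sources used here: aligner, counter, strandedness and the treatment of reads that fit several genes. Groups come from the sample labels. From the counts, genes were kept with edgeR's filterByExpr (minimum count 10, minimum total 15), after which each library lost 0.161% of its counts or less, and libraries were scaled by TMM (factors 0.9874 to 1.018). All 9 libraries were fitted together with edgeR 4.0.16 (limma 3.58.1, R 4.3.3) in its quasi-likelihood mode, with genotype as the only term, and p-values were adjusted by the Benjamini-Hochberg method over 17575 genes with a threshold of 0.05. The SE is the log2 fold change divided by the square root of its F statistic. CPM use the scaled library size, TPM use the deposited lengths, and displayed log2 levels are log2(CPM + 0.5). Overlap between groups was judged on CPM.

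The alternatives were DESeq2 1.42.0, its size factors in edgeR, total-count scaling, no filter, a filter at 1 CPM, a fit of the compared libraries alone, a replicate block, each library left out in turn, and all 3 libraries apart in regional markers left out together. For pathway genes that are not members, and for the marker lists, leaving out libraries was an alternative chosen after seeing the data. Library values are given in full for each called member and, within each role group, for the 2 members of at least 1 CPM with the smallest unadjusted p and for the member highest per length; a few more are named for their role. The members and all gene lists were chosen with earlier results of these data known. Promoter windows and motif counts come from RefSeq tables of GRCm38.p6, matched by symbol, and their coordinates are not those of the counts' build. Python 3.11.15 with matplotlib 3.10.9 drew the figures.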

Additional observations from a re-analysis of the deposited data

How the results depend on the processing

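The medians over the tested members kept their sign in each comparison under each alternative run. The count of members called in 5xFAD/Cd5l tg/wt against wild-type was 6 in the report, where 1.58% of all genes were called. It was 3 with total-count scaling (1.48% of all genes), 18 without a filter (3.39%), 14 with DESeq2 (2.66%) and 3 from the compared libraries alone (1.02%). Without a filter it was 6 against 5xFAD (6.58% of all genes) and 11 for both amyloid genotypes against wild-type (3.1%). The median in 5xFAD/Cd5l tg/wt against wild-type was 0.53 without the 3 libraries that regional markers set apart. The cause of these shifts was not tested. Leaving out 1 library at a time gave counts of 1 to 11 in 5xFAD/Cd5l tg/wt against wild-type, where 0.883% to 3.82% of all genes were called. Against 5xFAD they were 0 to 4 (1.55% to 11.5% of all genes). In 5xFAD against wild-type they were 1 to 2 (1.14% to 4.74%), and for both amyloid genotypes 1 to 4 (1.01% to 2.41%). The medians were then 0.55 to 0.80, 0.26 to 0.55, 0.14 to 0.39 and 0.39 to 0.57 in the same order. For 27 pairs of a named member and a comparison, 455 alternative values were computed: 344 kept their side of the threshold, 86 lost a call, 25 gained one and 0 changed sign. At 3 libraries per genotype, most single calls rest on individual libraries, and members under about 1 CPM hold few counts.

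The labels do not say whether replicate numbers pair the mice. Deviations of libraries with the same number correlated at -0.114 to 0.163 over 9 pairs, and those of other pairs at -0.176 to 0.152 over 18. Such correlations cannot settle whether mice of the same number were handled together. With the number as a block, 8 members were called in 5xFAD/Cd5l tg/wt against wild-type (median 0.72, with 1.37% of all genes called). Against 5xFAD there were 3 (0.41, 4.76%), in 5xFAD against wild-type 2 (0.27, 2.88%) and for both amyloid genotypes 3 (0.49, 1.33%).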
